A study of Homo sapiens with 12 samples.

Results

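The genes described here encode the proteins of the mitochondrial ribosome (mitoribosome). They were taken from the table of gene counts as every gene whose symbol is MRPL or MRPS followed by a number and, in some cases, a letter from A to C. This rule found 78 members among 60591 genes, with no use of any measured value. Of these, 51 are proteins of the large subunit and 26 of the small subunit, while MRPS36 (also called KGD4) is a component of the 2-oxoglutarate dehydrogenase complex and not of the ribosome. Symbols and subunits do not match throughout, since MRPS30 and MRPS18A are large-subunit proteins.

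RNA was sequenced from PC9 and H1650 cells, which are established non-small cell lung cancer lines that carry an activating deletion in EGFR and that the labels give as wild-type in genotype. Cells were collected at T0, when 0.1% DMSO was the only addition (0 h), or 36 h later, after exposure to erlotinib at 10 μM or to osimertinib at 0.1 μM. Erlotinib is a first-generation and osimertinib a third-generation inhibitor of EGFR, the receptor tyrosine kinase that drives growth in such tumours. Each of the 6 groups (PC9 T0, PC9 erlotinib, PC9 osimertinib, H1650 T0, H1650 erlotinib and H1650 osimertinib) held 2 biological replicates, which makes 12 libraries. No vehicle library of 36 h was analysed here and the T0 cells were collected 36 h before the treated ones, so changes with the drug and with time in culture cannot be told apart. Each line is a single culture line, and the replicates measure the spread between cultures of that line only.

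The libraries held 17961765 to 26346187 counted reads. Levels are given in CPM, the usual counts-per-million measure after edgeR's TMM scaling, and differences as log2 fold changes with their SE. A member was called when its adjusted p (Benjamini-Hochberg over the 19108 genes tested, from the quasi-likelihood test of edgeR) was under 0.05. Bulk RNA gives a level relative to the rest of a library, so that less RNA per cell and a changed mix of cells cannot be told apart. All 5 epithelial markers (EPCAM, CDH1, KRT8, KRT18 and KRT19) were present, with summed levels that moved with the groups: 8020 to 8072 CPM in PC9 T0, 5940 to 5948 CPM with erlotinib and 8454 to 9156 CPM with osimertinib, and 6260 to 6528, 5166 to 5202 and 7954 to 8628 CPM in H1650 cells in the same order. The 3 fibroblast markers (COL1A1, COL1A2 and DCN) summed to 18.3 to 21.1, 20.4 to 24.1 and 36.8 to 44.9 CPM in PC9 and to 9.96 to 14.8 CPM in H1650 cells, with DCN at 0 in 5 of the 6 groups. The 3 endothelial markers (PECAM1, VWF and CDH5) summed to 2.42, 3.40 to 3.76 and 4.82 to 5.55 CPM in PC9 and to 0.193 to 1.56 CPM in H1650 cells, and the 3 immune markers (PTPRC, CD3E and CD79A) to at most 0.448 CPM. The part of these shifts in the results was not tested.

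The mitoribosome translates the 13 mRNAs of the mitochondrial genome, all of which encode subunits of the oxidative phosphorylation complexes. Its RNA is transcribed in the mitochondrion, while its proteins are encoded in the nucleus, made in the cytosol and imported. About these proteins, a distinction is drawn between those with a counterpart in the bacterial ribosome, many of which contact ribosomal RNA near the catalytic and decoding centres, and those specific to mitochondria, which largely coat the outer surface. In the large subunit 29 members have a bacterial counterpart and 22 are specific to mitochondria, against 16 and 10 in the small subunit.

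The members lie on 21 chromosomes of GRCh38 (GENCODE 29). Of the 78 genes, 17 (21.8%) had an opposite-strand coding gene that starts within 1000 bases upstream of their own start. Among 19969 coding genes the share was 7.37%. MRPL10 and LRRC46 start 93 bases apart, for example, and MRPL46 and MRPS11, both members, start 34 bases apart. Promoters of 69 members were found in RefSeq (GRCh38.p14; 250 bases before to 50 after the start) and searched on both strands for 4 motifs. The ETS motif CCGGAAG, read by GABPA among other factors, was present in 29 of the 69 (42%) and in 14.2% of 15843 coding promoters. AAGATGGCG, the YY1 motif, was present in 13 (18.8%) against 2.74%. The NRF1 motif, searched in 2 forms that can overlap, was present in 5 (7.25%) against 4.67%, and the E-box CACGTG in 6 (8.7%) against 8.88%.

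Stretches of 250 bases before the start are shown for 4 members that differed in direction, MRPL3 (chr3:131502972-131503221, minus strand) and MRPL17 (chr11:6683341-6683590, minus strand), which fell in PC9 cells with erlotinib, and MRPL45 (chr17:38296918-38297167, plus strand) and MRPS21 (chr1:150293611-150293860, plus strand), which did not. Capitals mark the ETS motif in MRPL3 and, as its reverse complement, in MRPS21, and the NRF1 motif in MRPL17 and MRPL45.
MRPL3: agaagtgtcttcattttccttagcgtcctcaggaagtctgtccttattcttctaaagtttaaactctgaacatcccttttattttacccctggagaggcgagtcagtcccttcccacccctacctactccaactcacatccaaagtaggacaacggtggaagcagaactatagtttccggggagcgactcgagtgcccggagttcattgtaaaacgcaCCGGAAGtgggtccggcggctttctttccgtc
MRPL17: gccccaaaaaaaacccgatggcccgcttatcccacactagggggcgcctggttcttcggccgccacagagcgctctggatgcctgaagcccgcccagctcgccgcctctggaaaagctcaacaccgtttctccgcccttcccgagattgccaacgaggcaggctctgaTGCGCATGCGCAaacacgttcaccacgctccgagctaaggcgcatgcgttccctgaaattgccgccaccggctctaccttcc
MRPL45: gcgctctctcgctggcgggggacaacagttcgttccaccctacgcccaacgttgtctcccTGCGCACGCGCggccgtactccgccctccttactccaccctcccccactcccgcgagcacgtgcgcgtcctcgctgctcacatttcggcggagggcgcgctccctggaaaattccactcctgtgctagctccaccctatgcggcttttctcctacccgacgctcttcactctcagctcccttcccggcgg
MRPS21: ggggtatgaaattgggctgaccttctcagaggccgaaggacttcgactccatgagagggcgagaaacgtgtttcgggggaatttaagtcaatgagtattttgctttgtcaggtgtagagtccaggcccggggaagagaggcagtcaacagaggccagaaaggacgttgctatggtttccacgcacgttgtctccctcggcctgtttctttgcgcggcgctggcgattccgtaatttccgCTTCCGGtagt
The first capital of the ETS motif as printed lies 32 bases before the start in MRPL3 and 11 in MRPS21. Among the members with a matched promoter that were lower in PC9 with erlotinib, 20 of 51 (39.2%) held the ETS motif, against 8 of the other 17 tested (47.1%). A link between these motifs and the direction of change was not tested.

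Levels per length were compared in TPM, computed from the counts and the gene lengths in the table. Over the 77 members that passed the expression filter, the mean TPM over all libraries had a median of 51.7 and quartiles of 26.6 and 93.2. MRPL41, a large-subunit protein specific to mitochondria, was highest, with 219 to 397 TPM, followed by MRPS34 of the small subunit with a mean of 263 and MRPL51 of the large subunit with a mean of 248. The ranges of these 3 over the libraries overlapped. The table gives MRPL41 a length of 582 bases, while GENCODE 29 gives it 1262 exon bases, so its rank depends on the gene model. MRPS24 (mean of 2.41 TPM) and MRPL46 (3.42 TPM) were lowest among the members tested. No read was assigned to MRPL53 in any library, which allows a level of up to 0.116 to 0.168 CPM depending on the library (3 reads, counting error only). In GENCODE 29, 45.2% of the exon bases of MRPL53 are also exon bases of CCDC142 on the same strand, and 23.2% of those of MRPS24 are shared with the readthrough gene URGCP-MRPS24; the part of such sharing in their low counts was not tested. Over all members, 37 shared no exon base with another gene, and 35 had pseudogenes named after them in the table, 76 in all, so that reads of near-identical copies could be lost or gained.

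To compare the whole set between conditions, the levels of the members were summed in each library. In PC9 cells the sum was 4678 and 4750 CPM at T0, 3322 and 3352 CPM with erlotinib, and 2988 and 3192 CPM with osimertinib. Both treated groups lay below both T0 libraries, with means 29.2% lower with erlotinib and 34.5% lower with osimertinib. In H1650 cells the sum was 3488 and 3421 CPM at T0, 2977 and 2996 CPM with erlotinib, and 3068 and 3024 CPM with osimertinib, so that the treated means were 13.5% and 11.8% lower, again without overlap with T0. Untreated H1650 cells stood at 73.3% of the PC9 T0 mean. As a share of all counted reads, the members took 0.443% and 0.447% in PC9 T0 cells, and 0.293% and 0.307% with osimertinib. Large-subunit and small-subunit sums went down together (large-subunit means of 2972, 2048 and 1944 CPM and small-subunit means of 1728, 1274 and 1128 CPM in PC9 cells at T0, with erlotinib and with osimertinib).

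**Figure D1:**
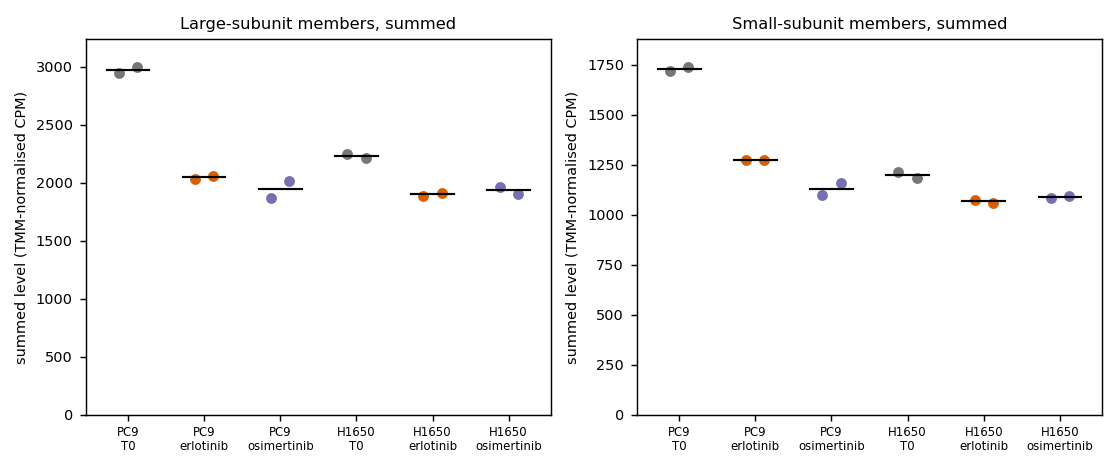
Summed levels of the large-subunit members (left) and small-subunit members (right) in TMM-normalised CPM, on axes that start at 0, for the 6 groups. Points are the 2 libraries of a group and the bar is their mean; in both lines the treated libraries lie below the T0 libraries, and the PC9 T0 libraries (large-subunit sums of 2945 and 2998 CPM) lie above all others.

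In PC9 cells most members were lower after treatment. With erlotinib, 58 of the 77 tested members were lower and 2 were higher, while 61.8% of all genes tested were called, 32.7% as higher and 29.1% as lower. The median member changed by -0.47 on the log2 scale, beside 0.07 for all genes tested. With osimertinib, 59 were lower and 3 higher (61.4% of all genes were called, 32.7% as higher and 28.7% as lower), with a median of -0.64 beside 0.06. Both comparisons use the same T0 libraries, and without the first of them 1 member was higher with osimertinib. Of the 77 members, 8 were called lower by more than 2-fold with erlotinib and 10 with osimertinib. Of the 19108 genes tested, 2485 and 2476 were, so falls of this size did not stand out among the members.

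Large-subunit proteins with a bacterial counterpart had the lowest medians with both drugs in PC9 cells. Of these 29 members, 27 were lower and 1 was higher with each drug, with medians of -0.74 for erlotinib and -0.69 for osimertinib. Of the 21 tested large-subunit members specific to mitochondria, 12 and 13 were lower and 1 was higher with each drug (medians of -0.24 and -0.37). In the small subunit, 12 of 16 members with a bacterial counterpart were lower with each drug (medians of -0.53 and -0.60), and 7 of 10 members specific to mitochondria (-0.38 and -0.58). The difference between these classes was not tested.

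**Figure D2:**
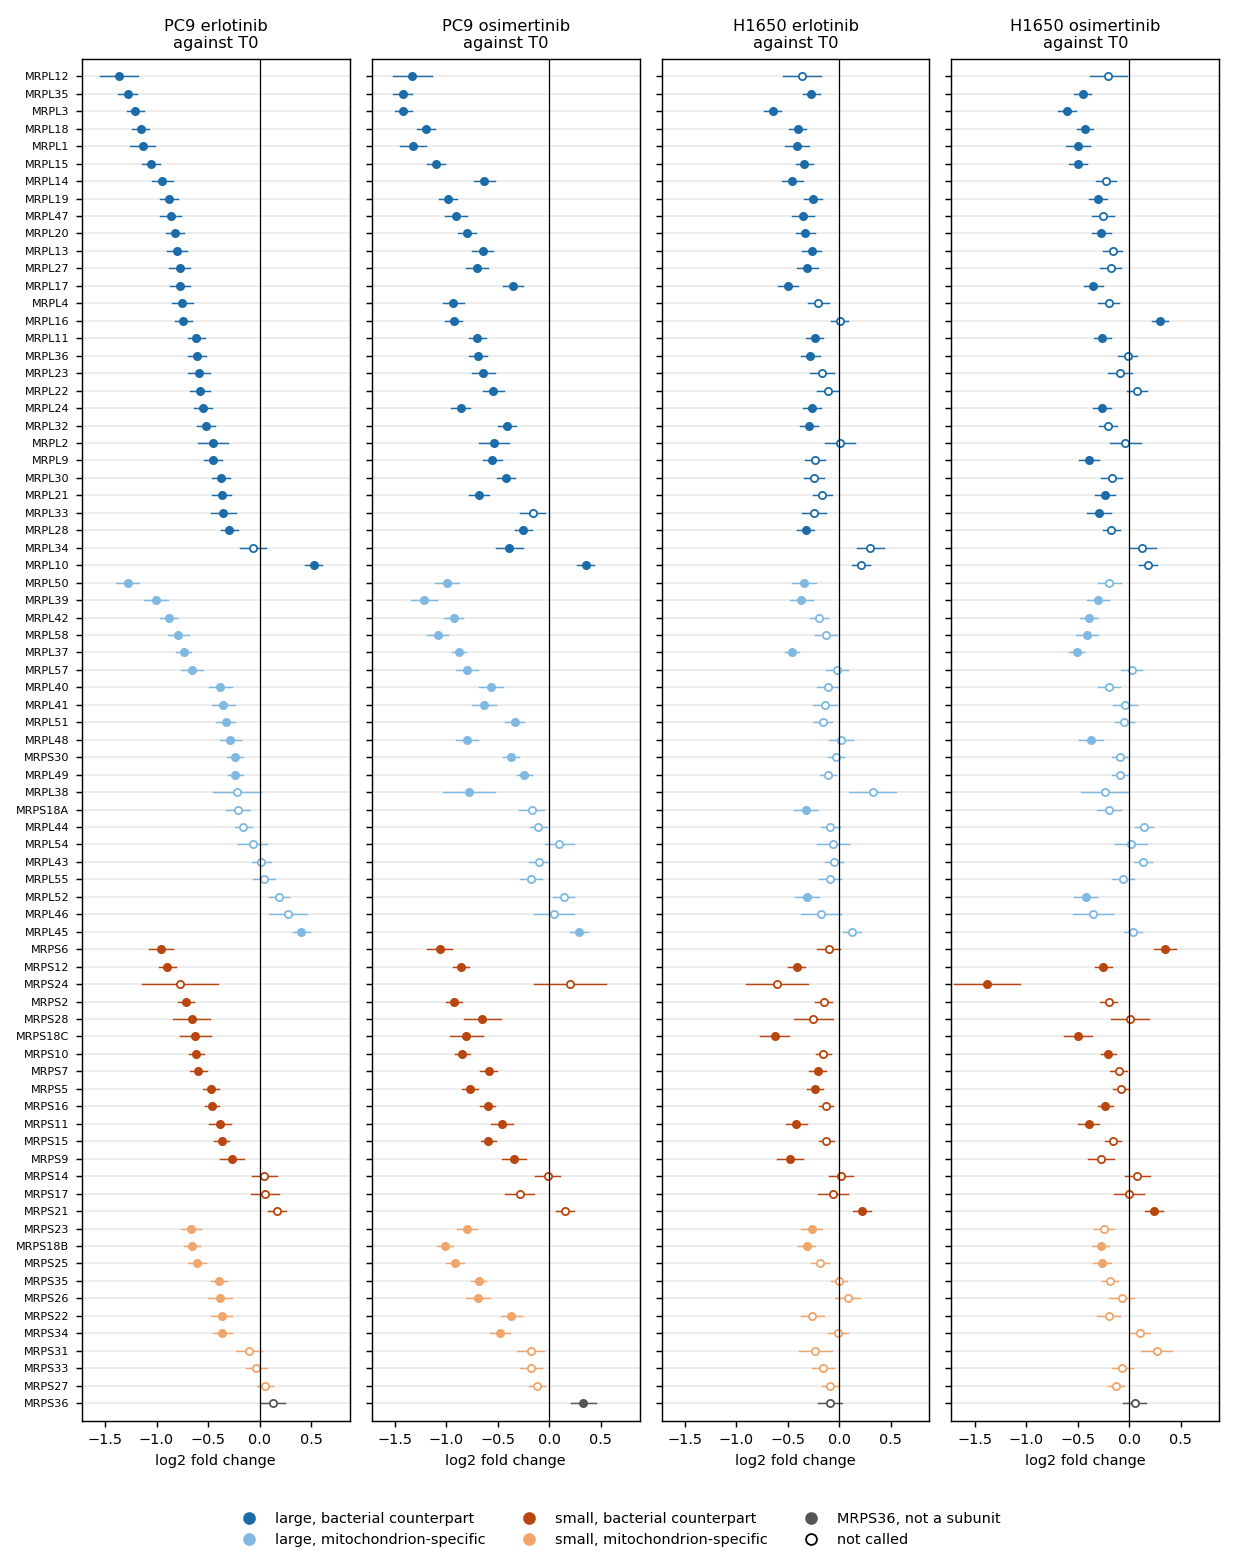
Log2 fold change against T0 of the 77 tested members in PC9 and H1650 cells with erlotinib or osimertinib, with horizontal lines of 1 SE either side and the members ordered within each class by their change in PC9 cells with erlotinib. Colours mark subunit and origin, filled points were called and open points were not; in PC9 cells 58 and 59 members were called lower, and in H1650 cells 30 and 27.

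MRPL3, a large-subunit protein with a bacterial counterpart (chr3:131462212-131502983), had the lowest mean change among the members lower in all 4 treated groups. Its level in PC9 cells was 188 and 211 CPM at T0, 82.3 and 90.2 CPM with erlotinib and 69.0 and 80.3 CPM with osimertinib. In H1650 cells it was 114 and 117 CPM at T0, 71.4 and 75.9 CPM with erlotinib and 75.8 and 76.1 CPM with osimertinib. Treated and T0 libraries did not overlap in either line. The changes were -1.21 (SE 0.08, adjusted p = 3.9e-13) and -1.42 (adjusted p = 1.5e-14) in PC9 cells. H1650 cells had a change of -0.65 (adjusted p = 4.9e-07) with erlotinib and of -0.60 (adjusted p = 1.4e-06) with osimertinib. PC9 cells thus had the higher level of MRPL3 at T0 and, by less, with erlotinib, while the osimertinib libraries of the lines overlapped.

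MRPL35, a large-subunit protein with a bacterial counterpart, differed between the lines in another way. PC9 cells held 49.1 and 54.4 CPM at T0, 21.0 and 21.6 CPM with erlotinib and 19.0 and 19.6 CPM with osimertinib. H1650 cells held 59.2 and 62.6 CPM at T0, 51.6 and 49.3 CPM with erlotinib and 43.3 and 45.6 CPM with osimertinib. At T0 it was higher in H1650 cells by 0.24 (adjusted p = 0.0156), a call lost without the first PC9 (0.16) or second H1650 (0.19) T0 library. The fall was larger in PC9 cells, -1.28 (SE 0.09) and -1.43 (SE 0.09) against -0.27 (SE 0.08) and -0.45 (SE 0.09). The H1650 call with erlotinib (adjusted p = 0.0125) was lost without the second T0 library (-0.23) or the second erlotinib library of H1650 (-0.25).

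MRPL1, a protein of the L1 stalk that lines the exit path of tRNAs, completed the 3 members with the lowest mean change. It fell from 31.0 and 29.7 CPM to 11.96 and 15.6 CPM with erlotinib and 11.2 and 13.1 CPM with osimertinib in PC9 cells. H1650 cells started at 28.03 and 25.9 CPM, which was not called different from PC9 cells, and held 19.3 and 21.2 CPM with erlotinib and 18.7 and 19.5 CPM with osimertinib. In PC9 cells it changed by -1.13 and -1.32 (adjusted p = 4.2e-09 and 3.9e-10), and in H1650 cells by -0.41 (adjusted p = 0.007) and -0.50 (adjusted p = 0.00147). Without the first T0 or first erlotinib library of H1650, the call in H1650 cells with erlotinib was lost (-0.36 and -0.34).

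MRPL12 and MRPL10, which belong to the stalk that recruits translation factors, moved in opposite directions in PC9 cells. MRPL12, which forms the stalk and has also been linked to mitochondrial RNA polymerase, fell from 34.9 and 31.2 CPM at T0 to 16.1 and 9.72 CPM with erlotinib and 12.8 and 13.5 CPM with osimertinib, by -1.37 (SE 0.18, adjusted p = 2.6e-07) and -1.33 (SE 0.19, adjusted p = 5.2e-07). In H1650 cells its T0 libraries stood at 26.7 and 17.9 CPM, and the treated libraries, at 15.4 to 22.8 CPM, overlapped with them. MRPL12 is a less certain case, since 68.2% of its exon bases are shared with AC139530.2 on the same strand. MRPL10, which anchors the stalk to the ribosome (chr17:47823272-47831534), rose from 43.7 and 48.8 CPM to 66.9 and 66.2 CPM with erlotinib and 58.7 and 59.2 CPM with osimertinib in PC9 cells. Its change was 0.52 (SE 0.08, adjusted p = 3.4e-06) with erlotinib and 0.35 (adjusted p = 0.000671) with osimertinib, and all 4 treated libraries lay above both T0 libraries. H1650 cells held 29.4 and 30.9 CPM of MRPL10 at T0 and 33.9 to 35.3 CPM after treatment, a difference that was not called.

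MRPL45, which binds the inner membrane and lines the tunnel through which the new chain leaves, also rose in PC9 cells. It held 47.8 and 53.2 CPM at T0, 66.5 and 67.5 CPM with erlotinib and 58.6 and 64.8 CPM with osimertinib (0.41, adjusted p = 0.000175, and 0.29, adjusted p = 0.00562). The osimertinib call was lost without the first T0 library (0.21) or the second osimertinib library (0.21) of PC9 and without a filter on low counts (0.20). MRPS36, the member outside the ribosome, stood at 13.4 and 13.8 CPM at T0 and at 17.4 and 16.7 CPM with osimertinib (0.33, adjusted p = 0.0195), a call that was lost on leaving out 3 of the 12 libraries in turn (both T0 libraries and the first osimertinib library of PC9, with values from 0.30 to 0.35), in DESeq2, without a filter on low counts and in a fit of PC9 alone. MRPS36 has 5 pseudogenes in the table. The members that rose in PC9 cells were therefore a stalk base, a tunnel protein and a dehydrogenase component.

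MRPL50, a large-subunit protein specific to mitochondria, had the lowest of its own group means in PC9 cells with erlotinib. Its level in PC9 cells was 36.4 and 37.7 CPM at T0, 13.4 and 17.0 CPM with erlotinib and 17.9 and 19.3 CPM with osimertinib, a change of -1.28 (SE 0.11) and -0.99 (SE 0.11). MRPL37, another protein of this class, fell from 222 and 217 CPM to 129.7 and 133 CPM with erlotinib and 117 and 121 CPM with osimertinib, by -0.74 (SE 0.07) and -0.88 (SE 0.07). No T0 library overlapped with a treated one for either gene. The most abundant members per length lay nearer to 0, since MRPL41 changed by -0.35 and -0.64, MRPS34 by -0.36 and -0.48, and MRPL51 by -0.33 and -0.34. For these 3 the erlotinib calls rest on few libraries, because MRPL41 was not called without the first T0 library (-0.25) or the second erlotinib library (-0.21) of PC9, MRPS34 not without the second erlotinib library (-0.24), and MRPL51 not without the first erlotinib library (-0.23); the osimertinib call of MRPL51 was lost without the first osimertinib library of PC9 (-0.19).

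**Figure D3:**
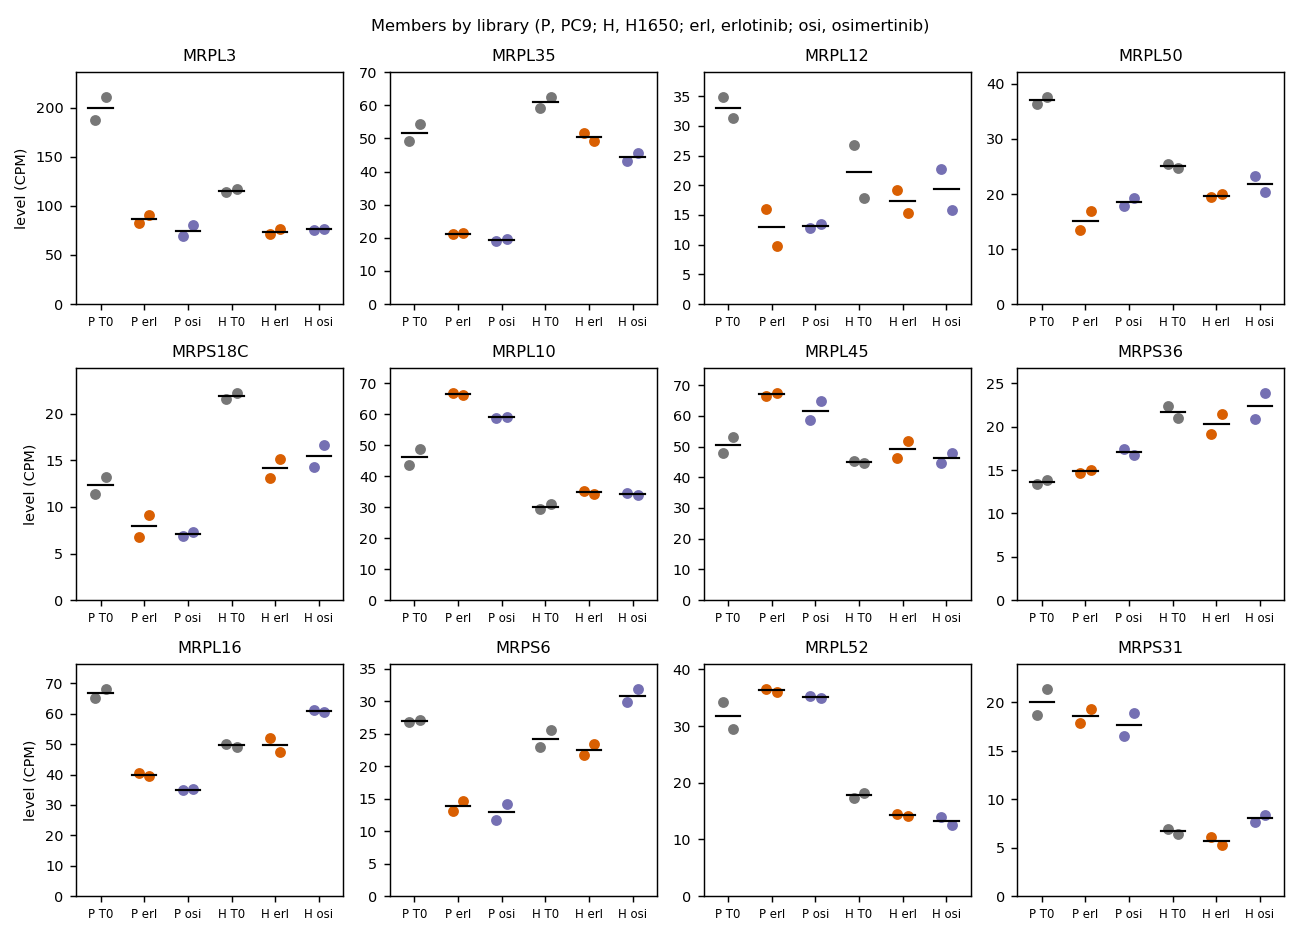
Levels in TMM-normalised CPM, on axes that start at 0, of 12 members in the 12 libraries. Points are single libraries and bars the means of 2; MRPL3, MRPL35, MRPL12, MRPL50 and MRPS18C lie lower in treated PC9 cells, MRPL10 and MRPL45 lie higher, MRPL16 and MRPS6 are lower in treated PC9 cells and higher in H1650 cells with osimertinib, and MRPL52 and MRPS31 separate the lines.

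In H1650 cells fewer members were called. With erlotinib, 30 of 77 were lower and 1 was higher (36.5% of all genes tested were called, 18% as higher and 18.5% as lower), and the median change was -0.20 beside 0.01 for all genes. With osimertinib, 27 were lower and 3 higher (35.7%, with 17.8% higher and 17.9% lower), with a median of -0.20 beside 0. The erlotinib count was 19 without the first T0 library and 16 without the first erlotinib library of H1650, and the osimertinib count was 13 without either osimertinib library of H1650. Of the 3 higher with osimertinib, 1 was called without the first T0 or the second osimertinib library of H1650. Of the large-subunit members with a bacterial counterpart, 17 of 29 were lower with erlotinib (median -0.27), and 13 were lower and 1 was higher with osimertinib (median -0.23). Of the small-subunit members specific to mitochondria, 2 of 10 were lower with each drug. Only MRPS24 was called lower by more than 2-fold in H1650 cells, with osimertinib. Of the 19108 genes tested, 502 were with erlotinib and 464 with osimertinib.

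MRPS24, a small-subunit protein with a bacterial counterpart, had few reads. H1650 cells held 3.03 and 3.55 CPM at T0, 1.86 and 2.47 CPM with erlotinib and 1.098 and 1.43 CPM with osimertinib, a change of -1.38 (SE 0.32, adjusted p = 0.00108) with osimertinib. PC9 cells held 0.703 to 1.85 CPM over all their libraries, and neither drug changed this level past the threshold. MRPL17, a protein near the exit of the tunnel, fell from 36.7 and 38.6 CPM at T0 to 26.01 and 27.3 CPM with erlotinib (-0.50, adjusted p = 0.000147) and to 31.1 and 28.1 CPM with osimertinib (-0.35, adjusted p = 0.00454) in H1650 cells. The osimertinib call of MRPL17 was lost without the second T0 library (-0.31) or the second osimertinib library (-0.28) of H1650. MRPL37 fell from 156 and 153 CPM to 114 and 110.4 CPM with erlotinib and 110.0 and 107 CPM with osimertinib, by -0.46 and -0.51.

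The 3 paralogs of the bacterial protein S18 differed in level and in change. MRPS18A, which is placed in the large subunit, held 16.5 to 20.4 CPM in PC9 libraries and was called only in H1650 cells with erlotinib, from 25.2 and 22.3 CPM to 19.7 and 18.1 CPM (-0.33, adjusted p = 0.0278), a call lost on leaving out 3 of the 12 libraries in turn (the first T0 library and either erlotinib library of H1650) and in DESeq2. MRPS18B held 131 and 127 CPM at T0, 79.0 and 84.4 CPM with erlotinib and 58.7 and 69.0 CPM with osimertinib in PC9 cells (-0.66, adjusted p = 4.3e-08, and -1.01, adjusted p = 1.2e-11). In H1650 cells MRPS18B fell from 61.1 and 58.2 CPM to 47.8 to 49.4 CPM (-0.32 and -0.28), the osimertinib call being lost on leaving out any of 3 libraries (the first T0 and either osimertinib library of H1650). MRPS18C fell with erlotinib by -0.62 (SE 0.15) in PC9 and -0.63 (SE 0.14) in H1650 cells, and by -0.81 and -0.50 with osimertinib, the last not called without the first osimertinib library of H1650 (-0.40). Reads of these genes may be shared with other transcripts, since 47% of the exon bases of MRPS18A overlap RSPH9 and 40.2% of those of MRPS18C overlap ABRAXAS1, both on the opposite strand, and the strandedness of the counting is not given in the sources used here.

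The difference between the lines was tested as the change in H1650 cells minus the change in PC9 cells. For erlotinib, 36 members had a higher and 2 a lower value (40.8% of all genes tested were called, 21.1% as higher and 19.8% as lower), with a median of 0.33 beside -0.03 for all genes. For osimertinib, 45 were higher and 2 lower (41.9%, with 21.5% higher and 20.5% lower), with a median of 0.49 beside -0.03. With erlotinib, 28 members were lower in both lines, 48.3% of those lower in PC9 and 93.3% of those lower in H1650 cells. With osimertinib the number was 24, 40.7% and 88.9% of the same. Across the 77 members, the changes in PC9 and H1650 cells with erlotinib had a Pearson's r of 0.60 and a Spearman's rho of 0.61, and those with osimertinib 0.27 and 0.45; the lines share no library, and members are not independent replicates.

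**Figure D4:**
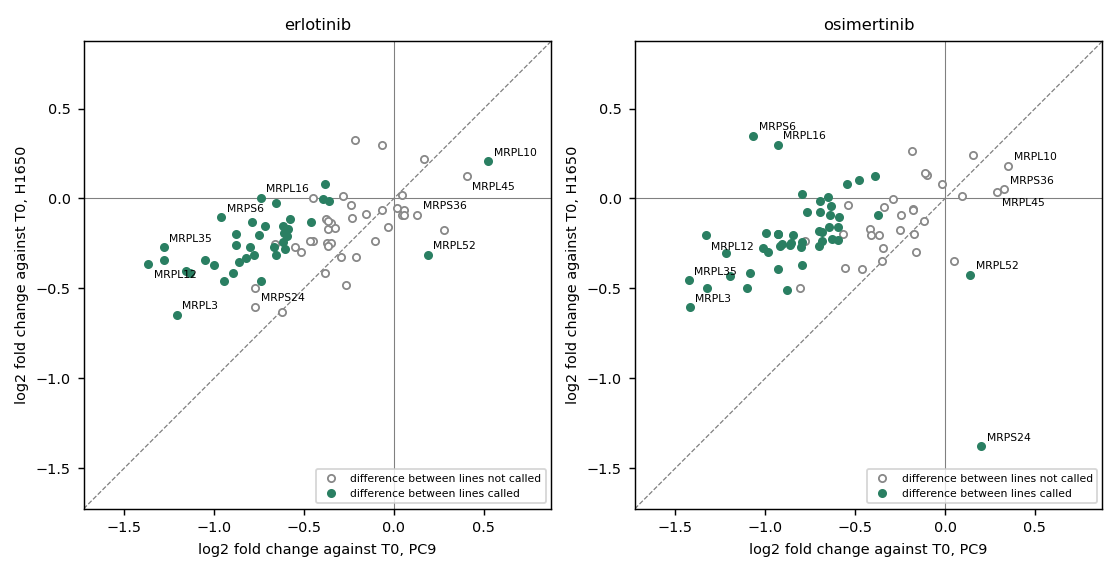
Log2 fold change against T0 in PC9 (horizontal) and H1650 cells (vertical) of the 77 tested members with erlotinib (left) and osimertinib (right). The dashed line marks equal change and filled points are members whose change differed between the lines (38 and 47 members); most lie left of the vertical axis and above the dashed line, and MRPS6 and MRPL16 lie above 0 in H1650 cells with osimertinib.

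MRPL35, MRPL12 and MRPL50 had the highest differences between the lines with erlotinib, at 1.01 (SE 0.12, adjusted p = 1.3e-07), 1.00 (SE 0.26, adjusted p = 0.00262) and 0.94 (SE 0.16, adjusted p = 2.5e-05). The call of MRPL12 with erlotinib was lost in DESeq2 (0.99). With osimertinib the highest were MRPS6 at 1.42 (SE 0.16, adjusted p = 3.1e-08), MRPL16 at 1.23 (SE 0.12, adjusted p = 8.9e-10) and MRPL12 at 1.13 (SE 0.26, adjusted p = 0.00084). MRPS6 and MRPL16 were the 2 members called in opposite directions in the lines with osimertinib.

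MRPS6, a small-subunit protein with a bacterial counterpart (chr21:34073224-34143034), held 26.9 and 27.2 CPM at T0 in PC9 cells, 13.1 and 14.6 CPM with erlotinib and 11.7 and 14.2 CPM with osimertinib. H1650 cells held 22.9 and 25.5 CPM at T0, 21.7 and 23.4 CPM with erlotinib and 29.8 and 31.9 CPM with osimertinib. At T0 the lines did not differ past the threshold, while the osimertinib libraries of H1650 lay above all others and those of PC9 among the lowest. The change with osimertinib was -1.07 (adjusted p = 8.1e-09) in PC9 and 0.35 (adjusted p = 0.0127) in H1650 cells, the latter not called without the first T0 library (0.27) or the second osimertinib library (0.30) of H1650. Of its exon bases, 9.61% are shared with SLC5A3 and AP000317.2 on the same strand.

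MRPL16, a large-subunit protein near the tRNA sites (chr11:59806135-59810872), shared no exon base with another gene. In PC9 cells it held 65.2 and 68.2 CPM at T0, 40.4 and 39.6 CPM with erlotinib and 34.9 and 35.2 CPM with osimertinib. In H1650 cells it held 50.2 and 48.9 CPM at T0, 52.0 and 47.4 CPM with erlotinib and 61.4 and 60.5 CPM with osimertinib. Its change with osimertinib was -0.93 (SE 0.08, adjusted p = 1.1e-10) in PC9 and 0.30 (SE 0.08, adjusted p = 0.00425) in H1650 cells. With erlotinib it fell in PC9 cells by -0.74, while the H1650 libraries overlapped with T0.

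Members with a lower change in H1650 cells were few. MRPL52, a large-subunit protein specific to mitochondria, held 34.3 and 29.4 CPM at T0 in PC9 cells and 34.9 to 36.6 CPM after treatment, while H1650 cells went from 17.3 and 18.3 CPM to 14.5 and 14.1 CPM with erlotinib and 13.99 and 12.5 CPM with osimertinib. The difference between the lines was -0.50 (SE 0.15, adjusted p = 0.00809) with erlotinib and -0.56 (SE 0.15, adjusted p = 0.00333) with osimertinib, the first not called without the second PC9 T0 library (-0.40). MRPL10 differed by -0.32 with erlotinib (adjusted p = 0.0362), a call lost on leaving out any of 9 of the 12 libraries (values from -0.40 to -0.24 over all 12), and in DESeq2. MRPS24 differed by -1.58 (SE 0.47, adjusted p = 0.00789) with osimertinib. MRPS21, a small-subunit protein, was the member called higher in H1650 cells with both drugs, from 42.3 and 43.6 CPM at T0 to 49.7 and 50.4 CPM with erlotinib and 49.6 and 51.8 CPM with osimertinib (0.22, adjusted p = 0.0411, and 0.24, adjusted p = 0.0272); its erlotinib call was lost on leaving out any of 8 and its osimertinib call on leaving out any of 4 of the 12 libraries, both were lost in DESeq2, and 8 pseudogenes of MRPS21 are in the table.

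Differences between the drugs were smaller. In PC9 cells, osimertinib minus erlotinib was higher for 2 members and lower for 10 (16.6% of all genes tested were called, 10.1% as higher and 6.41% as lower), and the median was -0.11 beside 0.0036 for all genes. Without the first osimertinib library of PC9 the median was -0.056, and without the second it was -0.16. Without the first erlotinib or the first osimertinib library of PC9, 4 members were lower. MRPL48, a protein of the central protuberance, stood at 28.5 and 28.8 CPM with erlotinib and 18.7 and 21.5 CPM with osimertinib (-0.51, SE 0.11, adjusted p = 0.000937). MRPS18B was lower with osimertinib by -0.36 (adjusted p = 0.00243), which was not called without the first PC9 osimertinib library (-0.24). MRPL17 went the other way, with 23.3 and 23.0 CPM with erlotinib and 29.5 and 32.6 CPM with osimertinib (0.42, SE 0.10, adjusted p = 0.0029), and was not called without the second osimertinib library (0.35). MRPL14 was higher with osimertinib by 0.31 (adjusted p = 0.0313), a call lost on leaving out any of the 4 treated PC9 libraries (values from 0.27 to 0.35) and in DESeq2.

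In H1650 cells, 3 members were higher and 1 was lower with osimertinib than with erlotinib (8.75% of all genes tested were called, 5.02% as higher and 3.73% as lower), with a median of 0.040. Without the first erlotinib library of H1650 this median was 0.022, and without its first or second osimertinib library 0.016 or 0.024. Those higher were MRPS31 (0.50, adjusted p = 0.0436), MRPS6 (0.45, adjusted p = 0.00783) and MRPL16 (0.30, adjusted p = 0.0192), and MRPL48 was lower (-0.39, adjusted p = 0.0428). On leaving out 1 library in turn, the calls were lost for 4, 2, 3 and 8 of the 12 libraries in the same order, with directions kept throughout, and in DESeq2 those of MRPS31 and MRPL48 were lost. The value of MRPL48 without a library ranged from -0.44 to -0.32.

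At T0 most members were lower in H1650 than in PC9 cells. Of the 77 tested, 48 were lower and 13 higher (69.6% of all genes tested were called, 35.8% as higher and 33.8% as lower), with a median of -0.44 beside 0.04 for all genes. All 10 small-subunit members specific to mitochondria were lower (median -0.84), against 8 of 16 with a bacterial counterpart, of which 5 were higher (median -0.25). The mean TPM of small-subunit members divided by that of large-subunit members was 1.06 and 1.05 in the PC9 T0 libraries and 0.879 and 0.874 in the H1650 T0 libraries. This ratio was 1.03 to 1.14 in treated PC9 and 0.913 to 0.963 in treated H1650 libraries, so that the lines did not overlap. A mean of TPM gives the most weight to the members with the highest TPM. By summed CPM the lines lay closer. The second osimertinib library held 1158 CPM of small-subunit and 2017 CPM of large-subunit members in PC9, and 1094 and 1907 CPM in H1650 cells.

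MRPL30, a large-subunit protein with a bacterial counterpart, had the lowest difference between the lines at T0, with 79.9 and 82.6 CPM in PC9 and 24.9 and 23.3 CPM in H1650 cells (-1.75, SE 0.09, adjusted p = 1.3e-15). MRPS31 stood at 18.7 and 21.4 CPM against 6.90 and 6.44 CPM (-1.59, SE 0.14), and MRPS2, a small-subunit protein with a bacterial counterpart, at 135 and 134 CPM against 47.6 and 41.9 CPM (-1.59, SE 0.08). MRPL30 shares 19.5% and MRPS2 14.4% of its exon bases with other genes. Higher in H1650 cells were MRPL43, with 25.8 and 26.5 CPM in PC9 and 51.5 and 47.5 CPM in H1650 cells (0.92, SE 0.09, adjusted p = 1e-09), MRPS18C, with 11.4 and 13.2 CPM against 21.6 and 22.3 CPM (0.83, SE 0.14), and MRPS24 (1.16, SE 0.32, adjusted p = 0.00196). MRPL43 shares 36.9% of its exon bases with SEMA4G and TWNK on the opposite strand. Neither drug changed MRPL43 past the threshold in either line, and the lines did not overlap in any of its libraries.

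Genes that work with the mitoribosome were counted from lists that hold no member. For these lists and those that follow, the shares over all genes tested are the reference. In PC9 cells 32.7% were higher and 29.1% lower with erlotinib, and 32.7% and 28.7% with osimertinib. In H1650 cells the shares were 18% and 18.5% with erlotinib, and 17.8% and 17.9% with osimertinib. Whether a list differed from all genes was not tested. All 5 ribosomal subunits whose symbols lie outside the rule were lower in PC9 cells with each drug (medians of -0.49 and -0.57), and 2 of 5 were lower in H1650 cells with each. Among them DAP3, a GTP-binding small-subunit protein, had 121 and 122 CPM at T0, 70.0 and 79.5 CPM with erlotinib and 71.6 and 72.9 CPM with osimertinib in PC9 cells (-0.70 and -0.75), and was also lower in H1650 cells (-0.64 and -0.43). PTCD3, another small-subunit protein, changed by -0.24 and -0.36 in PC9 cells and was not called in H1650 cells (0.09 and 0.11).

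Of 29 assembly factors, 15 were lower and 5 higher in PC9 cells with erlotinib, and 18 and 4 with osimertinib. In H1650 cells 4 were called with erlotinib, each of them lower, and 5 were lower and 1 higher with osimertinib. C1QBP, a matrix protein needed for mitochondrial translation, fell from 372 and 388 CPM to 137 and 134 CPM with erlotinib and 117 and 129 CPM with osimertinib in PC9 cells (-1.49 and -1.63), and by -0.58 with each drug in H1650 cells. NOA1, a GTPase of assembly, rose in PC9 cells from 29.9 and 32.1 CPM to 68.0 and 62.4 CPM with erlotinib and 57.3 and 57.2 CPM with osimertinib (1.07 and 0.89), and was not called in H1650 cells (0.10 and 0.17).

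Of 17 tested translation factors, 8 were lower and 4 higher in PC9 cells with erlotinib and 9 and 4 with osimertinib, against 6 and 1, and 5 and 2, in H1650 cells. SLIRP, which stabilises mitochondrial mRNAs, fell by -0.96 and -1.10 in PC9 cells and by -0.42 and -0.56 in H1650 cells, while MTIF3, an initiation factor, rose by 0.59 and 0.53 in PC9 cells and was not called in H1650 cells. Of 17 tested factors for the expression of mitochondrial DNA, 12 were lower and 2 higher in PC9 cells with each drug. PPRC1, a coactivator of nuclear genes for mitochondria, fell from 93.8 and 90.4 CPM to 34.1 and 38.5 CPM with erlotinib and 35.9 and 32.6 CPM with osimertinib in PC9 cells (-1.34 and -1.42), and by -0.44 and -0.53 in H1650 cells. MTERF2, of the transcription termination factor family, rose in all 4 (0.74 and 0.79 in PC9, 0.97 and 0.93 in H1650 cells). In H1650 cells, 5 of the 17 were lower with each drug and 2 and 1 were higher.

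The 13 mRNAs that the mitoribosome translates and the proteins of the cytosolic ribosome were counted beside the members. Of the 13 mRNAs, 2 were higher and 2 lower in PC9 cells with erlotinib (median -0.03) and 5 higher and 1 lower with osimertinib (median 0.15), while 4 and 6 were called in H1650 cells, each of them higher. MT-CO1 was higher by 0.46 and 0.47 in PC9 cells, and MT-ND2 changed by -0.25 and -0.19, the latter not called. Of 86 tested cytosolic ribosomal protein genes, 35 were higher and 16 lower in PC9 cells with erlotinib (median 0.09), but 4 higher and 47 lower with osimertinib (median -0.20). In H1650 cells, 55 and 59 of the 86 were lower. Within this list RPS27L had the highest mean change (0.93 and 1.17 in PC9 cells).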

How the data were processed

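RNA-seq of PC9 and H1650 cells was analysed in 6 groups of 2 libraries, grouped by their deposited labels. The deposited values are counts. The authors ran the reads through the DolphinNext pipeline and deposited, for 60591 genes and each library, the raw whole-number output of featureCounts with no scaling. GRCh38 and DESeq2 are named in the submitters' processing notes, while the aligner, the annotation and the strandedness are not given in the sources used here.

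Testing used edgeR 4.0.16 under R 4.3.3, whose expression filter by group kept 19108 genes, among them 77 of the 78 members. These held at least 99.9% of the counts of every library. TMM factors lay between 0.941 and 1.08. A single quasi-likelihood model with the 6 group means was fitted to all 12 libraries (6 residual and 20.7 prior degrees of freedom; biological coefficient of variation 0.0656). Contrasts were each drug against T0, osimertinib against erlotinib, H1650 against PC9 at T0 and the change in H1650 minus that in PC9. The threshold was an adjusted p under 0.05, and p-values measure only the spread between the replicates. TPM were computed from the counts and the lengths in the table. Each library pair differed by more than the sampling noise of its counts (chi-square per gene of 4.03 to 7.16).

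The members, the gene lists and the tests were chosen with earlier results of these data known. Named members were the 3 highest and 3 lowest called changes in each drug contrast and in the mean over members called alike in all 4, those of the drug-by-line differences and of the T0 difference, the 2 highest and 2 lowest called differences between the drugs in each line, the S18 paralogs, and the 3 most and 3 least abundant members per length. Of each other list, the genes with the highest and the lowest mean change were named, except for an item that is not reported here. MRPL16 in the comparison of the drugs in H1650 cells was named after its value was seen. The lists held 29 assembly factors, 18 translation factors, 18 factors for the expression of mitochondrial DNA, 5 subunits outside the rule, 89 cytosolic ribosomal proteins and 13 mitochondrial mRNAs; subunit, origin and role of each gene were written from general knowledge.

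Positions and exon overlaps come from GENCODE 29 on GRCh38, and promoters from RefSeq (GRCh38.p14), whose starts can differ. Tables were joined and figures drawn in Python 3.11.15 with pandas 2.3.3 and matplotlib 3.10.9. Alternatives were DESeq2 1.42.0, RLE and upper quartile scaling, no filter on low counts, a minimum of 10 counts in each library, a threshold of 0.01 on the adjusted p, a fit of each line alone, the replicate number as a block, and leaving out each library. Simulated counts for PC9 erlotinib against T0 over 19108 genes were used as a test. Of 200 genes shifted by 0.5 (log2), 128 were recovered with 8 false calls, and of 200 shifted by 1, 192 with 15. The shifted genes were drawn only from those above a minimum level, as many raised as lowered. They were far fewer than the genes called in the data. The recovery therefore does not cover members with few reads, such as MRPS24.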

Additional observations from a re-analysis of the deposited data

Results flagged for a closer look

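The changes of 17 named members differed between the lines in the test of the difference itself (the change in H1650 minus that in PC9, tested by edgeR's quasi-likelihood method), and the values here are on the log2 scale. Some members were named for this same difference or for extreme drug changes, so the 17 do not show how common it was. Over all genes tested, 40.8% were called with erlotinib and 41.9% with osimertinib. Differences with both drugs, erlotinib first, were 0.72 and 0.83 for MRPL1, 1.00 and 1.13 for MRPL12, 0.49 and 0.41 for MRPL14, 0.74 and 1.23 for MRPL16, and 0.56 and 0.82 for MRPL3. They were 1.01 and 0.97 for MRPL35, 0.28 and 0.37 for MRPL37, 0.94 and 0.80 for MRPL50, 0.34 and 0.74 for MRPS18B, and 0.56 and 0.73 for MRPS2. MRPS34 differed by 0.35 and 0.59, and MRPS6 by 0.86 and 1.42. In each of these 12 members the change was higher in H1650 cells with either drug.

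MRPL52 was the named member with a lower change in H1650 cells for both drugs, at -0.50 and -0.56. With erlotinib alone, MRPL10 differed by -0.32. With osimertinib alone, MRPL41 differed by 0.60, MRPL48 by 0.43 and MRPS24 by -1.58. On leaving out 1 of the 12 libraries in turn, the erlotinib call was lost for 9 libraries for MRPL10, 5 for MRPL37, 4 for MRPS34, 3 for MRPS18B, 2 for MRPL14 and 1 for MRPL52, and the osimertinib call for 7 for MRPL48 and 4 for MRPL14. The osimertinib value of MRPL14 was 0.25 without the second H1650 T0 library, and the erlotinib value of MRPS34 was 0.22 without the second PC9 erlotinib library. The values for the 2 drugs share the T0 libraries of each line. Groups held 2 libraries each, so no single library could be tested as standing apart from its group.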

How the results depend on the processing

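Over 8 alternative settings and 12 fits that each left out a library, the median change of the members kept its sign in every comparison, and none of 2324 values of named members turned direction, while 155 lost their call. Of 354 counts of called members, 287 stayed within 1.5 times the reported count. The cause of each move below was not tested.

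An adjusted p under 0.01 left 16 members lower in H1650 with erlotinib, and 15 lower and 1 higher with osimertinib; no member stayed higher with erlotinib (0). Between the drugs it left 1 higher and 4 lower in PC9, and 1 higher and 0 lower in H1650, and in the drug-by-line difference with erlotinib 1 lower. DESeq2 gave 0 higher in H1650 with erlotinib, 1 higher in PC9 and 0 lower in H1650 between the drugs, and 1 lower in the erlotinib difference between the lines. RLE scaling gave 0 higher in H1650 with erlotinib and 0 lower between the drugs in H1650. Upper quartile scaling, and likewise the 10 count minimum, gave 4 higher in PC9 and 2 in H1650 with erlotinib. Without a filter, 1 was higher in PC9 with osimertinib, 0 higher in H1650 with erlotinib, 0 lower between the drugs in H1650 and 1 lower in the erlotinib difference between the lines. Fitted on its own, H1650 gave 0 lower between the drugs.

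Leaving out 1 library in turn gave these ranges of counts, higher then lower: PC9 erlotinib 2 to 3 and 50 to 58, PC9 osimertinib 1 to 3 and 53 to 60, H1650 erlotinib 0 to 1 and 16 to 33, and H1650 osimertinib 1 to 3 and 13 to 28. Between the drugs they were 0 to 2 and 4 to 9 in PC9, and 0 to 3 and 0 to 1 in H1650. They were 9 to 13 and 45 to 49 for the lines at T0, 26 to 37 and 1 to 2 for the erlotinib difference between the lines, and 39 to 48 and 2 for the osimertinib difference. An arm left with 1 library was assumed to vary like the others.

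Replicate numbers were not taken to pair the samples, since deviations of same-numbered libraries correlated between -0.067 and 0.095 over the tested genes and no label ties a number to a batch. In some genes the library numbered 1 was above that numbered 2 in all 6 groups or in none. Such genes made up 10.6% of the 19108 tested genes and 14.3% of the 77 tested members. Both shares are above what unrelated orders would give, although genes are not independent of one another. Ties, as where both libraries held 0 reads, count as not above and can add to the shares. Whether part of the genes share a deviation by replicate number was not tested, and the main fit would not account for one. With the replicate block, 3 members were higher in H1650 with erlotinib, 17 were lower between the drugs in PC9, and 5 were higher and 2 lower between the drugs in H1650; other counts stayed within 1.5 times. No scaling moved the median of all genes by more than 0.091. With 2 libraries in each group, changes near 0.3 (log2) lie close to what the fit could call.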

Other observations

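MRPL41 was singled out after its values were seen. It stood at 62.2 and 49.6 CPM in H1650 T0 cells and at 55.5 and 45.4 CPM in PC9 cells with erlotinib, and the library numbered 1 held the higher level in all 6 groups. For MRPL12 and MRPS34, also singled out in this way, the library numbered 1 was higher in 5 of the 6 groups. Over the 77 tested members, the library numbered 1 was above that numbered 2 in all 6 groups for 2 members and below it in all 6 for 9, together 14.3%. Over all 19108 tested genes the share was 10.6% (939 above in all 6 groups and 1089 above in none).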
